A study of Mus musculus with 3 samples.

Results

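ERα binding was examined at 9 genes of prolactin and STAT5 signalling in the mouse mammary gland, the prolactin receptor gene Prlr, the kinase gene Jak2, the transcription factor genes Stat5a, Stat5b and Stat3, and the suppressor genes Socs1, Socs2, Socs3 and Cish. The genes were chosen by name, and a binding site was counted for a gene when its midpoint lay within 100 kb of any annotated transcription start site (TSS) of that gene. Of the 9607 peaks of replicate 1, 36 met this rule, and of the 6819 peaks of replicate 2, 30 did. A shared region is the interval covered by a peak of each replicate. Of the 6250 shared regions, 29 lay within 100 kb of the 9 genes, and each of the 9 genes had at least 1.

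In ChIP-seq, chromatin carrying a given protein is pulled down with an antibody and sequenced, and bound regions appear where reads pile up relative to input chromatin. Wild-type BALB/c mice (BALB/cJ in the paper) were ovariectomized at 6 weeks of age, left for 10 days and given 100 ng of 17β-estradiol (E2). Their #4 mammary glands were taken after 2 h. Each of the 2 ERα ChIP replicates was a pool from 6 mice, made with the antibody sc-542, and 1 input library from the same treatment served both. No vehicle-treated ChIP library is among the samples, so the peaks describe binding after E2 and not a change caused by it. The lists hold positions and scores but no reads, so they give neither the depth of the libraries nor markers by which the tissue could be checked. Scores grow as the p-value of a peak falls, by 10 for each factor of 10, and started at 80.02 in replicate 1 and 80.05 in replicate 2. The median score was 162.4 in replicate 1 and 160.9 in replicate 2. In whole glands, binding in few cells and weak binding in many cells cannot be told apart.

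Prolactin acts through a receptor on the cell surface that has no kinase activity of its own. The receptor works through the bound kinase JAK2, which phosphorylates STAT5A and STAT5B, and these enter the nucleus and bind DNA at STAT sites. In the mammary gland this pathway drives the growth of alveoli and the expression of milk protein genes, and the SOCS proteins and CISH are induced by STATs and damp the signal.

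For the top shared region of each gene, ranked by the lower of its replicate scores, the stretch closest to the known ERα binding sequence is shown. ERα binds the estrogen response element (ERE), a palindrome whose consensus is GGTCA and TGACC separated by any 3 bases, and each sequence below is the closest match to it within 400 bp around the midpoint, with 14 bases on each side. In Cish 3 matches were equally close, and the one nearest to the midpoint is shown. Capitals mark the 13 bases of the match. All are given 5′ to 3′ on the plus strand of NCBIM37, the assembly of mm9, and positions of substitutions are counted from 1 at the 5′ end of the 13 bases, consensus base first. Both other regions of the Stat locus with scores above 1000 in each replicate are included.
Prlr, upstream, chr15:10064657-10064697: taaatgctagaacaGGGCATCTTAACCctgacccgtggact
Jak2, upstream, chr19:29313363-29313403: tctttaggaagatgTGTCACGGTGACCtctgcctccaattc
Stat5b, intron, chr11:100660836-100660876: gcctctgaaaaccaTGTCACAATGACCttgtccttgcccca
Stat5b to Stat5a, intergenic, chr11:100715709-100715749: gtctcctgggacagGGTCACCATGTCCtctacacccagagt
Stat5a, intron, chr11:100732099-100732139: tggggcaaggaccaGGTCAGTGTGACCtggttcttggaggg
Socs1, upstream, chr16:10865993-10866033: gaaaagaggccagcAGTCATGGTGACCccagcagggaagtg
Socs2, downstream, chr10:94784897-94784937: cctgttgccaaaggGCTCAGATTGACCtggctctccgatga
Socs3, downstream, chr11:117813377-117813417: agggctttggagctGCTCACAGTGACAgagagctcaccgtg
Cish, downstream, chr9:107210897-107210937: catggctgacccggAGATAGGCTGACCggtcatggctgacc
The Stat5a intron had the only perfect ERE among the 29 regions. The match differed from the consensus at 1 position in Jak2 (G1T), the Stat5b intron (G1T), the Stat5b to Stat5a interval (A11T), Socs1 (G1A) and Socs2 (G2C). It differed at 2 positions in Prlr (T3G and G10A) and Socs3 (G2C and C13A) and at 3 positions in Cish (G1A, T3A and C4T). The centre of the match shown lay from 2 bp (Jak2) to 180 bp (Socs3) from the midpoint of the region. A match describes the sequence and does not show that these bases were bound, or by which protein.

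**Figure D1:**
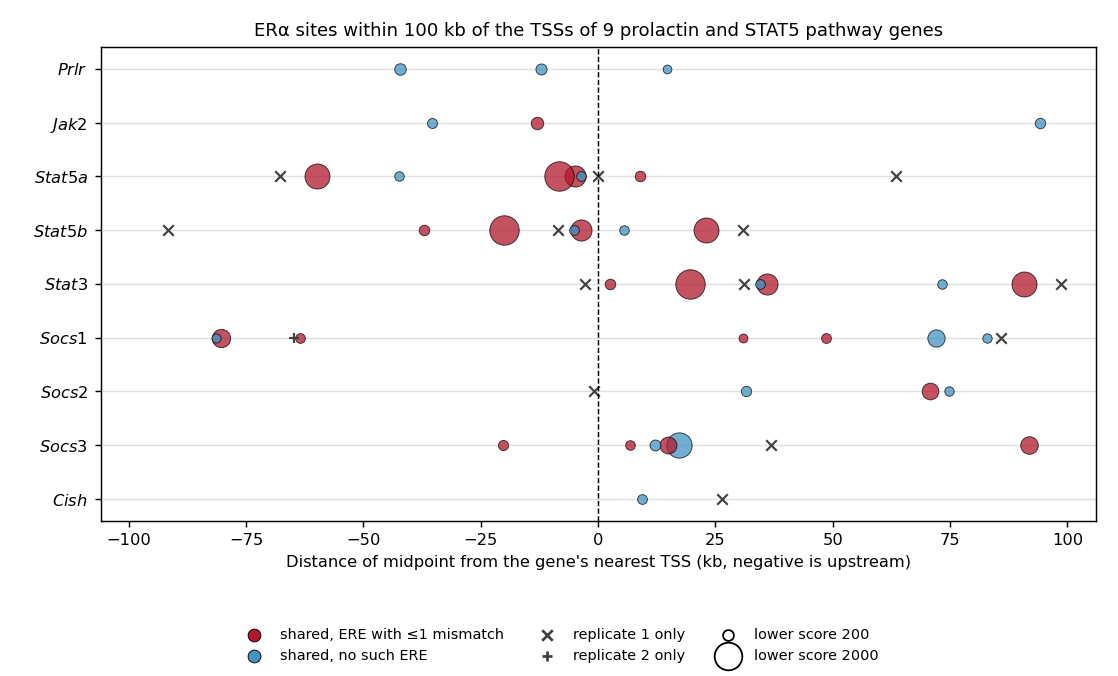
ERα sites within 100 kb of each gene, with the distance of the midpoint from the nearest TSS of that gene in kb on the x axis and the genes on the y axis. Circles are shared regions, with area rising with the lower of the replicate scores and red for an ERE of at most 1 mismatch, crosses and plus signs are peaks of 1 replicate only, and the Stat5a, Stat5b and Stat3 lines show the same 6 shared regions measured from different TSSs.

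Within 100 kb, shared regions were most numerous at the Stat locus and at the suppressor genes Socs1 and Socs3, and fewer at the receptor, the kinase, Socs2 and Cish. Socs1 had 7 shared regions, Socs3 had 6, and Stat5a, Stat5b and Stat3 had the same 6. Prlr, Jak2 and Socs2 had 3 each, and Cish had 1. The count of Socs1 depended on the limits, since within 50 kb it had 2 and Prlr 3, by the nearest TSS it had 2 and Prlr 3, and with scores of at least 200 in both lists each had 2. By the nearest TSS, Stat5a with 2 and Stat3 with 1 also fell below Prlr. Stat3 reached 6 only with all its TSSs, and had 4 with its most 5′ TSS only or with TSSs of protein-coding transcripts only. Among all 22380 protein-coding genes, 38.1% had at least 1 shared region within 100 kb, 8.88% had at least 3, and 1.37% had at least 6. Thus 9 of 9 genes had at least 1, 8 had at least 3 and 5 had at least 6, but Stat5a, Stat5b and Stat3 are neighbours and are not independent of each other. The median was 6 for the 9 genes and 0 for protein-coding genes. The DNA searched was longer for genes whose TSSs lie far apart, with 348143 bp for Prlr against a median of 200052 bp for protein-coding genes. Per 100 kb searched, Socs1 had 3.5 shared regions, Socs3 2.99, Stat5a 2.73, Jak2 1.5, Socs2 1.34, Prlr 0.862 and Cish 0.492. Of the 29 regions, 18 had one of the 9 genes as the nearest, and the others were nearer to a TSS of another gene. Of the 9 genes, 8 were nearest to at least 1 shared region, all but Cish, against 11.8% of protein-coding genes.

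**Figure D2:**
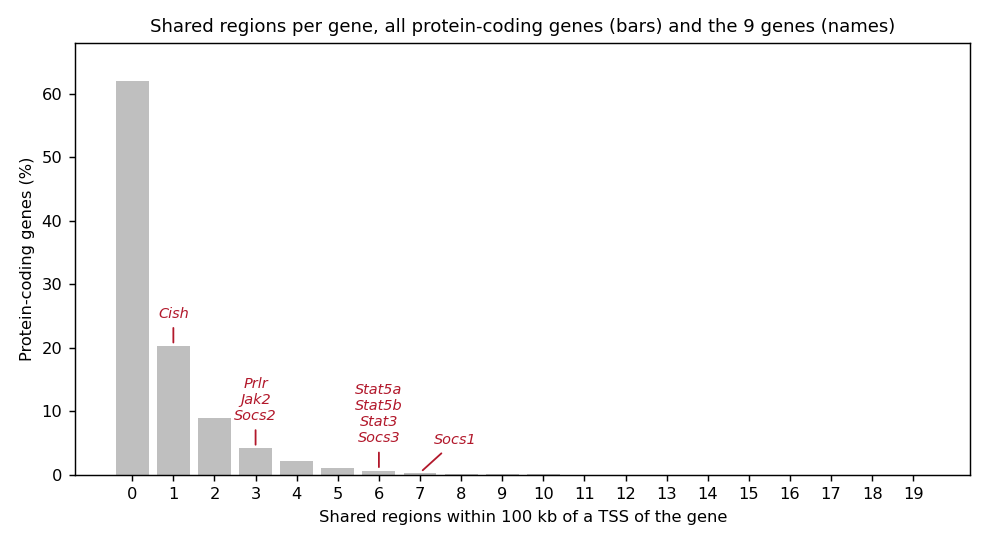
Percent of the 22380 protein-coding genes (y axis) by number of shared regions within 100 kb of a TSS (x axis), with the 9 genes named above their counts. Cish, with 1 region, sits in the most frequent class above 0, and Socs1, with 7, lies in the tail.

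Prlr, which encodes the prolactin receptor, lies at chr15:10106993-10303504 on the plus strand. Its 3 shared regions all had Prlr as the nearest gene, and no peak of either list within 100 kb was without a partner. The upstream region at chr15:10064427-10064988, between genes, scored 348.9 in replicate 1 and 246.1 in replicate 2 and lay 42286 bp upstream of the most 5′ TSS. A region in an intron at chr15:10130671-10131248 scored 419.6 and 215.5 and lay 23966 bp downstream of the most 5′ TSS, with an internal TSS 12261 bp further on. The third, in an intron at chr15:10121993-10122392, was close to the limit of calling, with scores of 85.6 and 100.9, at 14656 bp downstream of a TSS. None of the 3 had an ERE with at most 1 mismatch. The weakest of them, in the intron, contained an AP1 match and a STAT match. The highest lower score at the receptor gene was thus 246.1, against a median of 168.3 over all shared regions. No shared region lay closer than 12261 bp to a TSS of Prlr.

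Jak2, the gene of the kinase that the receptor activates, lies at chr19:29326318-29387570 on the plus strand and has 1 annotated TSS. The top region by its lower score, at chr19:29313080-29313682 between genes and 12937 bp upstream, scored 307.7 in replicate 1 and 346.1 in replicate 2. It was 1 of only 4 among the 29 regions with a higher score in replicate 2. Its PAX2 match, GTCACG, lay inside its ERE with 1 mismatch and is not a separate stretch, because the PAX2 consensus begins with bases of the ERE. A region further upstream, chr19:29290607-29291085, at 35472 bp, scored 198.6 and 150.1 and held an AP1 and a FOXA1 match but no ERE with at most 1 mismatch. The last, chr19:29420256-29420780, lay 94200 bp downstream of the TSS and nearer to another gene, 5033414D02Rik, with scores of 174.8 and 176.6. It also held an AP1 and a FOXA1 match, and its closest match to the ERE had 2 mismatches. All 3 regions of Jak2 were intergenic, and 346.1 was their highest score in either list.

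Stat5b and Stat5a, which encode the closely related transcription factors that carry the prolactin signal to the nucleus, lie head to head on chromosome 11, and Stat3, whose product acts in the involuting gland, follows. The same 6 shared regions, whose midpoints spanned 88312 bp, lay within 100 kb of all 3 genes, and so did 3 peaks of replicate 1 only. The strongest, at chr11:100731484-100732491 in an intron of Stat5a, scored 2296.6 in replicate 1 and 2292.3 in replicate 2. It ranked 26 of all 6250 shared regions by its lower score, within the top 0.416%. The region lay 11322 bp downstream of the most 5′ TSS of Stat5a and 8346 bp upstream of an internal one. It held the perfect ERE, and a STAT match lay 229 bp to the left of it.

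Another strong region, chr11:100660515-100661228 in an intron of Stat5b, scored 1613.4 in replicate 1 and 1614.6 in replicate 2, at 51167 bp downstream of the most 5′ TSS and 22971 bp downstream of the nearest. Its SF1 match overlapped the ERE with 1 mismatch, because the SF1 consensus contains bases of the ERE, and a FOXA1 match lay 168 bp to the right. In the interval between the promoters, a region at chr11:100715428-100715990 scored 1559.1 and 1115.9. Its midpoint was 3671 bp upstream of Stat5b and 4956 bp upstream of Stat5a, and it held an ERE with 1 mismatch and a STAT match. Hence 3 of the 4 regions with both scores of at least 1000 near the 9 genes fell at the Stat5 genes. The weaker region of the same interval, chr11:100716786-100717377, was the closest to Stat5a at 3584 bp upstream, with scores of 308.5 and 136.4, an SF1 match and no ERE with at most 1 mismatch.

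At Stat3 the closest shared region, chr11:100748899-100749468, lay in an exon that is untranslated, 2443 bp downstream of an internal TSS and 51671 bp downstream of the most 5′ TSS, and its score was 274.0 in replicate 1 and 182.9 in replicate 2. It was the only region for which Stat3 was the nearest gene. It held an ERE with 1 mismatch, and SF1 and FOXA1 matches. The Stat5a promoter itself was called in replicate 1 only, at chr11:100720121-100720993, with a score of 141.9 and its midpoint 108 bp upstream of the most 5′ TSS. The nearest replicate 2 peak began or ended 2684 bp away. The other peaks of replicate 1 only scored 85.2 and 177.6, the latter 2885 bp upstream of the most 5′ TSS of Stat3. Promoter-proximal binding at the Stat genes was therefore not shared by both replicates.

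Socs1, a suppressor that binds JAK kinases, lies at chr16:10783901-10785629 on the minus strand, and its shared regions were many but distant. The closest, chr16:10754627-10755069 at 30781 bp downstream of the TSS, was weak and scored 102.4 in replicate 1 and 93.8 in replicate 2. It held 3 AP1 matches and an ERE with 1 mismatch. The strongest, chr16:10865533-10866410, lay 80342 bp upstream in an intron of A630055G03Rik and scored 1142.8 and 808.6. Only 2 of the 7 regions had Socs1 as the nearest gene, and 4 of the 7 had an ERE with at most 1 mismatch. A peak of replicate 1 only scored 115.7 and a peak of replicate 2 only scored 85.0.

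Socs2, a suppressor of growth hormone signalling that can also act on the prolactin receptor, lies at chr10:94847996-94879814 on the minus strand. Its strongest region, chr10:94784406-94785251, scored 807.3 in replicate 1 and 649.3 in replicate 2, but lay in an intron of Cradd, 70773 bp downstream of the nearest Socs2 TSS. A weaker region in the same intron, chr10:94780455-94781354 at 74697 bp, scored 157.2 and 117.6. The only region with Socs2 as the nearest gene, chr10:94823813-94824499 at 31445 bp, scored 328.9 and 169.2, and its closest match to the ERE had 4 mismatches. Much nearer, a peak of replicate 1 only at chr10:94856218-94856704, with a score of 170.6, had its midpoint 860 bp upstream of an internal Socs2 TSS. Near Socs2, as at Stat5a, the peak closest to a TSS was thus called in a single replicate.

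Socs3, a suppressor that binds JAK kinases and cytokine receptors, lies at chr11:117827393-117831361 on the minus strand and had a cluster of sites downstream of the gene. The 4 shared regions nearest to Socs3 had midpoints within 10395 bp. Of the 6250 shared regions, 183 (2.93%) were members of a run of 4 in at most that distance. The limit was the span of the Socs3 cluster itself, so its 4 regions met it by construction. The strongest of the cluster, chr11:117812448-117813987, at 17283 bp downstream of a TSS, scored 2901.6 in replicate 1 and 1655.7 in replicate 2. This was the highest replicate 1 score of the 29 regions, and its closest match to the ERE had 2 mismatches. The closest, chr11:117823267-117823957 at 6888 bp downstream, scored 194.7 and 130.1 and held an ERE with 1 mismatch and a STAT match. Of the 6 regions of Socs3, 4 had an ERE with at most 1 mismatch. The other pair lay at 91883 bp downstream, with Tha1 as the nearest gene and scores of 1265.8 and 733.9, and 20307 bp upstream in an intron of Pgs1, with scores of 183.8 and 157.2. A peak of replicate 1 only scored 107.8.

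Cish, which encodes a suppressor that is a classical STAT5 target, lies at chr9:107198357-107205115 on the plus strand. It had the fewest shared regions of the 9 genes. Its shared region, chr9:107210669-107211190, scored 179.4 in replicate 1 and 138.3 in replicate 2, lay 9443 bp downstream of a TSS between genes, and was nearer to Gm17041. It contained none of the motifs searched. A peak of replicate 1 only, 26300 bp downstream, scored higher at 219.3. By the lower score of the top region, the suppressors among the 9 genes thus ranged from the single modest region at Cish to the cluster at Socs3.

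**Figure D3:**
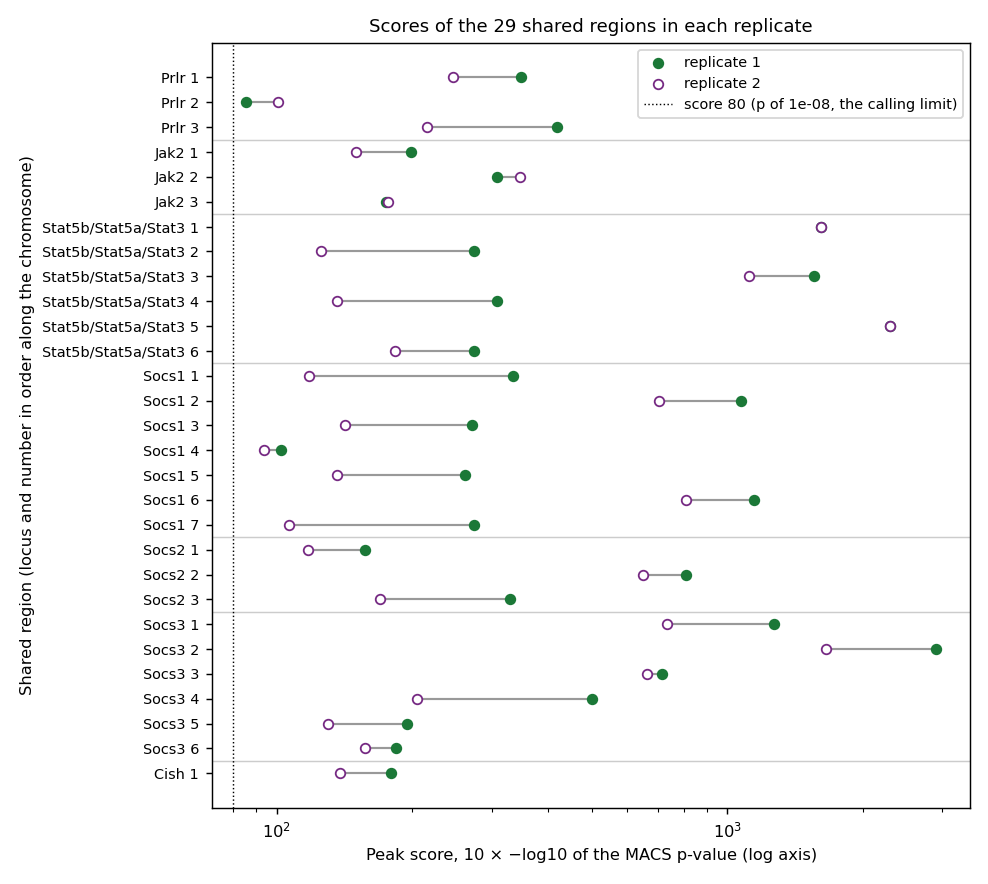
Score of each of the 29 shared regions in replicate 1 (filled) and replicate 2 (open) on a log axis, grouped by gene and numbered along the chromosome, with the calling limit of 80 dotted. In 25 of the 29 regions replicate 1 has the higher score, and the Stat5a intron region scores 2296.6 and 2292.3.

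The scores of the 29 regions were higher than those of all shared regions at the median of replicate 1 and at both quartiles, and close to them at the median of replicate 2 and of the lower score. The median score was 308.5 in replicate 1 and 176.6 in replicate 2, against 246.1 and 178.2 over all shared regions. The lower score had quartiles of 135.8 and 662.5 against 110.6 and 329.8, and a median of 174.8 against 168.3. Both scores were at least 200 in 13 regions (44.8%) against 41.7% of all, which is nearly the same share. At 1000, a limit chosen after the values were seen, they were 4 regions (13.8%) against 4.88%. Replicate 1 scored higher in 25 of 29 regions (86.2%) against 81.2% of pairs of 1 peak with 1 peak in the whole lists, and the median ratio of replicate 1 to replicate 2 was 1.42 against 1.31. Replicate 1 thus scored higher generally, and its excess was not confined to these genes. Without a partner were 7 of 36 peaks of replicate 1 (19.4%) against 35.1% of that list, and 1 of 30 of replicate 2 (3.33%) against 9.36%. No shared region near the 9 genes was proximal to its nearest TSS, from 1 kb upstream to 400 bp downstream, against 6.5% of all shared regions. Of the 29, 14 were intergenic (48.3% against 53.3%), 14 intronic (48.3% against 42.8%) and 1 exonic (3.45% against 3.89%).

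EREs with at most 1 mismatch were found in 14 of the 29 regions (48.3%, exact Clopper-Pearson 95% interval 29.4% to 67.5%) against 31.1% of the 6243 shared regions on assembled chromosomes. That interval covers counting error only, and regions of the same locus are not independent of each other. Regions with 1 mismatch made up the difference, 44.8% against 24.5%, while perfect EREs were found in 1 region (3.45%) against 6.60%. The median lower score was 478.5 with an ERE of at most 1 mismatch and 150.1 without, and over all shared regions it was 246.4 and 150.4. Higher scores thus went with a closer ERE both near the 9 genes and in the whole list. The ERE lay within 50 bp of the midpoint in 9 of the 14, and in 1380 of 1942 over all. Among the 4 regions with both scores of at least 1000, the top region of Socs3 was the only one without such an ERE.

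**Figure D4:**
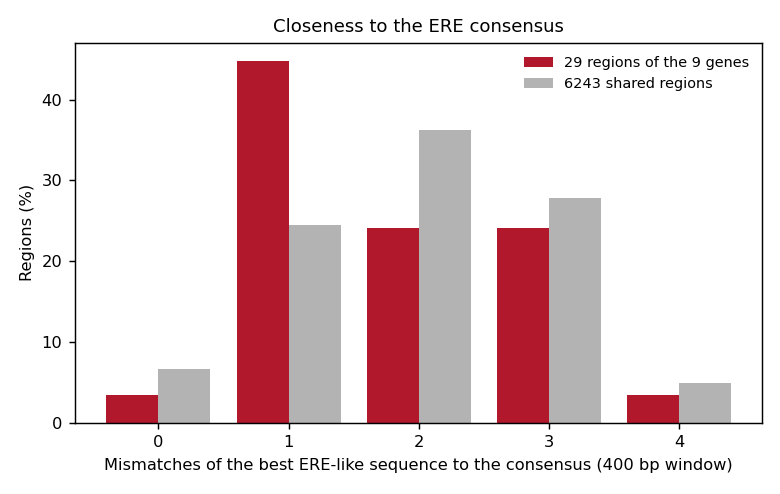
Percent of regions (y axis) by the number of mismatches of the closest match to the ERE within 400 bp (x axis), for the 29 regions of the 9 genes (red) and the 6243 shared regions on assembled chromosomes (grey). The red bar at 1 mismatch stands at 44.8% against 24.5%.

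Motifs of other factors were about as frequent near the 9 genes as elsewhere. AP1 (TGACTCA) matched 5 regions against 16.7% of all shared regions, STAT (TTC and GAA separated by any 3 bases) 5 against 14.4%, and FOXA1 (TGTTTAC or TATTTAC) 5 against 14%. With 29 regions, 5 are 17.2%. SF1 (CAAGGTCA) matched 3 (10.3%) against 9.35%, and PAX2 (GTCACG) matched 1 (3.45%) against 9.16%. These shares lay close to those over all regions, apart from PAX2 with its single match. The STAT matches lay in the Stat5a intron, the Stat5b to Stat5a interval, the weakest Prlr region and a pair of Socs3 regions. No motif searched was found in 10 regions (34.5%) against 35.0%.

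Other genes of the pathway, listed by role, were searched the same way. Of 38, 26 (68.4%) had at least 1 shared region against 38.1% of protein-coding genes, with 46 distinct regions in all, and 10 were the nearest gene to one, against 11.8% of protein-coding genes. Among ligands and receptors 8 of 10 had one, among kinases 2 of 3, among other STATs 3 of 4, among phosphatases, adaptors and STAT inhibitors 5 of 9, and among STAT5 target genes of the mammary gland 8 of 8. Of these 8 target genes 1, Bcl6, was the nearest gene to a shared region, a share near the 11.8% of protein-coding genes. None of the suppressors Socs4, Socs5, Socs6 and Socs7 had a shared region, and the nearest shared regions to these 4 genes were at least 166091 bp away. Each of the 4 had peaks of a single replicate within 100 kb. The closest to a TSS were a replicate 2 peak at 11965 bp for Socs4 (score 104.7) and replicate 1 peaks at -2336 bp for Socs5 (81.4), 2920 bp for Socs6 (119.6) and 59057 bp for Socs7 (90.8). Among the suppressors, shared regions were thus found at Socs1, Socs2, Socs3 and Cish. The milk protein genes had 1 shared region each, for Csn1s1 and Csn2 the same one, apart from Lalba with 2. The most shared regions were at Ptpn1, a phosphatase gene, and Stat6, with 5 each, and at Il6st, the gene of the receptor subunit gp130, with 4. Ptpn1 was the nearest gene to 2 of its regions, Stat6 to 1 and Il6st to 0. All regions of Il6st were intronic in Il31ra, which was also their nearest gene. The regions at chr13:113331851-113332300 and chr13:113332376-113333056 overlapped the same replicate 2 peak, with a score of 344.9. Proximal regions were found at Ptpn1, with scores of 208.5 and 159.4 at 358 bp upstream of a TSS, and at Bcl6, a repressor gene, with scores of 165.9 and 89.3 at 153 bp downstream. A proximal shared region was thus found at 2 of the 38 other genes and at 0 of the 9, against 1.58% of protein-coding genes, and with so few genes these counts set neither list apart.

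These counts describe 9 genes chosen by name with earlier results of the same data known, so no test was made of them. All protein-coding genes form the comparison, whether or not they are expressed in the gland. Distance does not show which gene a site acts on, and expression was not analysed here. The 2 pools do not show how far single mice differ. Deeper sequencing also raises scores, and the lists do not give the depth. The peaks give no measure of STAT5 binding, and sites below the authors' calling limit are not in the lists.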

How the data were processed

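Reads were aligned by the authors with BWA (mm9). Peaks were called by MACS with the input as control, separately for each ERα ChIP replicate, with a p-value limit of 1e-08. The MACS version is not given in the sources used here. The deposited score of each peak is 10 times the negative log10 of that p-value, with no scaling between lists. The input entered only through this calling.

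Peaks of the replicates were taken as shared if they had 1 bp or more in common. TSSs were those of all transcripts in GENCODE version 1 for mouse (Ensembl 65, NCBIM37), and sites inside protein-coding genes were split into exons and introns. Windows of 400 bp around the midpoints were scanned for each consensus on either strand, the ERE with at most 1 mismatch. Unplaced sequences, with 9 and 7 peaks in replicates 1 and 2, were left out of the motif search. The overlap, TSS and motif steps were tested on simulated data. The software was samtools 1.23.1 and Python 3.11.15 with matplotlib 3.10.9, pysam 0.24.0, numpy 2.4.6 and scipy 1.17.1.

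The 9 genes, the list of other pathway genes and the rule for what is named were chosen with earlier results of these data known. By that rule, every gene has its top shared region, by the lower of the replicate scores, and its closest one, genes with 3 or fewer have every region, and other genes are named for having the most shared regions (the top 3) or a proximal one. The 2 Socs3 regions outside the cluster, the 2 further strong Stat5 regions, the peaks of 1 replicate described with positions, the milk protein genes and the suppressors Socs4 to Socs7 were named after their values were seen. Alternatives were stricter scores, other overlap rules, TSS sets and distances, other ERE settings, and each replicate alone.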

Additional observations from a re-analysis of the deposited data

How the results depend on the processing

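Each of the 9 genes kept at least 1 shared region under every alternative but 2: 8 genes had one with scores of at least 200 in both lists, and 8 when regions were given to the nearest TSS of any gene only. The distinct regions near the 9 genes numbered 13 with scores of at least 200 (44.8%, against 41.7% of all shared regions) and 18 by the nearest TSS, and the other pathway genes with a region numbered 12 and 10, and 17 at 50 kb. The percent of protein-coding genes with a region was 33.74% with scores of at least 100, 20.87% with scores of at least 200, 35.12% with midpoints within 100 bp, 36.36% with the most 5′ TSS only, 37.35% with TSSs of protein-coding transcripts, 24.47% at 50 kb and 11.81% by the nearest TSS. With 1 replicate in place of shared regions it was 40.24% to 49.56%.

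The percent of regions with an ERE was 3.448% near the 9 genes and 6.599% over all with no mismatch, and 72.41% and 67.34% with at most 2 mismatches, so the higher share near the 9 genes reversed without mismatches, where it rested on 1 region. In 200 bp windows it was 28.21% over all and 41.38% near the 9 genes, and with 1 replicate alone 25.55% to 29.17% over all and 47.22% to 50% near the 9 genes.

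Counts per gene stayed within 1.5 times for 9 of 9 genes with scores of at least 100, under both other overlap rules and both other TSS sets, for 7 at 50 kb (not Socs1 and Socs2), for 3 by the nearest TSS (Prlr, Jak2 and Socs3) and for 2 with scores of at least 200 (Prlr and Socs3). Replicate 1 alone gave Cish 2 peaks. The median ratio of the scores was 1.497 with scores of at least 100 and 1.413 with scores of at least 200, the only alternatives run for it. No paired analysis was possible because there is 1 ChIP group and no result comes from a test.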
